A study of Arabidopsis thaliana with 6 samples.

Results

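The 10 genes described here encode transcription factors that pattern the Arabidopsis thaliana embryo, and they were chosen by name from the 33323 loci of the deposited expression table. They are WOX2 (AT5G59340), WOX8 (AT5G45980), WOX9 (AT2G33880), DRN (AT1G12980), ATML1 (AT4G21750), PDF2 (AT4G04890), SCR (AT3G54220), SHR (AT4G37650), PLT2 (AT1G51190) and BBM (AT5G17430), and the first digit of each locus gives its chromosome. RNA was sequenced from whole seeds taken at 6 days after pollination from 3 DD25::IaaH and 3 wild type (WT) samples. Both genotypes are given as Col-0, and the plants were selfed by hand. DD25::IaaH plants carry IaaH, a hydrolase of bacterial origin that releases auxin from indole-3-acetamide, under DD25, a promoter known for its activity in the central cell, from which the endosperm forms. The design calls the replicates biological, the labels do not say how many transgenic lines or plants were used, and p-values measure the spread between these samples. The design asks how RNA levels in the seed differ when the transgene for auxin production is present.

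After fertilization the zygote divides into an apical cell, which forms most of the embryo, and a basal cell, which forms the suspensor. The WUSCHEL-related homeobox (WOX) factors mark these lineages: WOX2 acts in the apical lineage, and WOX8 and WOX9 act with overlapping roles in the basal lineage. DRN, an AP2-type factor, works in the apical domain where cotyledons form, and the homeodomain-leucine zipper factors ATML1 and PDF2 specify the epidermis. SHR moves from the central tissue into the neighbouring layer and switches on SCR there to set up the ground tissue, and the AP2-type factors PLT2 and BBM maintain root stem cells. Auxin signalling guides several of these steps.

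Whole seeds hold embryo, endosperm and seed coat, and the embryo is a small share of the tissue. RNA of 5 embryo and seed maturation regulators (LEC1, LEC2, FUS3, ABI3 and L1L) was found in every sample, with a summed level of 280.1 to 355 RPKM in DD25::IaaH and 298 to 358 RPKM in WT. RPKM are reads scaled to the length of the gene in kilobases and to library depth. The library depth, rebuilt from the steps of the RPKM values, was 6.50 to 10.8 M reads in DD25::IaaH and 8.95 to 17.8 M reads in WT. WT 1 and WT 2 stood apart: 82.1% and 63.8% of annotated pseudogenes had a read in them, while the share was 21.3% to 32.9% in DD25::IaaH libraries and 27.7% in WT 3. In such bulk samples fewer cells of a type and less RNA per cell cannot be told apart.

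Because several members are close relatives, the RefSeq transcripts (genome TAIR10.1) were searched for stretches that a read could share with another place in the genome. The longest run of a member's transcript found elsewhere was 38 bases, in WOX2 and in PLT2, against reads of 125 bases. In WOX8, DRN and SHR no stretch of 25 bases occurred elsewhere. The closest pair by this measure, PDF2 and ATML1, shared at most 28 identical bases in their coding sequences, and WOX9 and WOX8 shared 17. No member overlapped another annotated locus. The 3 WOX members are printed over 93 coding bases around the codons for the conserved tryptophan, phenylalanine, glutamine and asparagine of the DNA-recognition helix, because this domain defines the family. Capitals mark bases that are the same in all 3 genes.
WOX9: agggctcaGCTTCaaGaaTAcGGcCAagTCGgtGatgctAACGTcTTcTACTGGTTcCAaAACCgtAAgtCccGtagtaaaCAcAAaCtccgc
WOX8: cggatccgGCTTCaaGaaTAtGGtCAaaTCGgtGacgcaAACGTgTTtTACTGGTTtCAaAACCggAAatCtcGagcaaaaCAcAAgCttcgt
WOX2: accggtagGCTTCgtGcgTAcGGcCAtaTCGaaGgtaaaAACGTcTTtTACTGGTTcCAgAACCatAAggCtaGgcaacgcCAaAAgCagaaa
Over this window WOX9 and WOX8 were identical at 75.3% of bases, WOX9 and WOX2 at 60.2%, and 46 of the 93 bases were the same in all 3. The 93 bases are shorter than 1 read.

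In mean level over the 6 libraries the order was ATML1, PDF2, WOX8, SCR, WOX9, BBM, SHR, PLT2, WOX2 and DRN, from 49.6 RPKM for ATML1 to 0.119 RPKM for DRN. ATML1 was above PDF2, and WOX8 above SCR, in all 6 libraries, and their ranges did not overlap. PDF2 and WOX8 were close, with PDF2 higher in 5 of 6 libraries. SCR and WOX9 changed places: SCR was the higher in all 3 DD25::IaaH libraries and in 1 of 3 WT libraries. BBM was above SHR in 1 of 3 DD25::IaaH and in all 3 WT libraries. PLT2, WOX2 and DRN formed the low end, and WOX2 and DRN lay close to the level that 3 reads give.

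**Figure D1:**
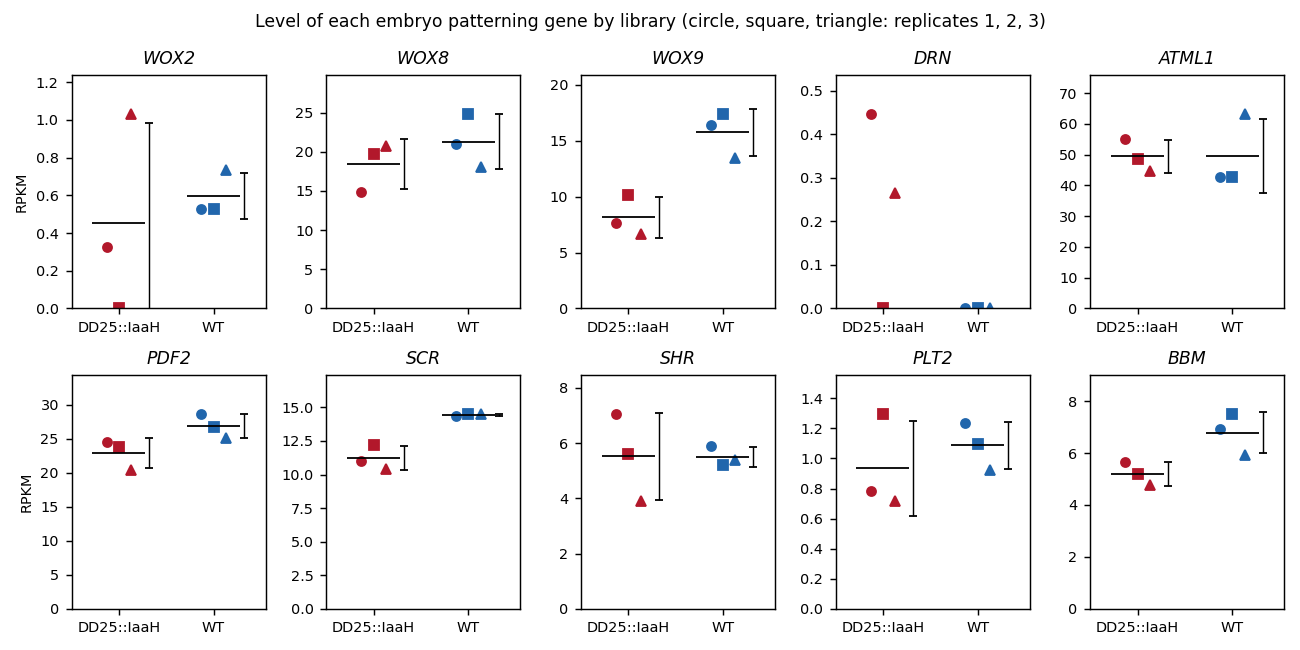
Level of each of the 10 members in RPKM (y axis, linear, from 0, scaled per gene) in the 3 DD25::IaaH libraries (red, left) and the 3 WT libraries (blue, right); symbols are replicates, lines are means and bars are SD, left out for DRN. The groups are separate for WOX9, PDF2, SCR and BBM, each lower in DD25::IaaH.

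WOX9, which acts in the basal lineage and suspensor, was the only 1 of the 10 members called as changed. It had 7.61, 10.2 and 6.62 RPKM in DD25::IaaH libraries 1 to 3, against 16.3, 17.4 and 13.4 RPKM in WT libraries 1 to 3. All DD25::IaaH values lay below all WT values, with a gap between 10.2 RPKM in DD25::IaaH and 13.4 RPKM in WT. WOX9 fell to 8.14 ± 1.84 RPKM in DD25::IaaH, against 15.7 ± 2.07 RPKM in WT (SD, n = 3 each). The log2 fold change, DD25::IaaH minus WT on log2(RPKM + 0.5), was -0.92 ± 0.19 (SE), with a 95% interval of -1.35 to -0.50 and a limma adjusted p of 0.0113. These levels rest on 92 to 125 reads in DD25::IaaH libraries and 197 to 444 reads in WT libraries. Leaving out any of the 6 libraries kept the adjusted p between 0.00821 and 0.04997. Against WT 3 alone, without both libraries that had reads on most pseudogenes, the log2 fold change was -0.71 and the adjusted p 0.274, with the lone WT library assumed to vary like the DD25::IaaH libraries.

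Of the 10 members 9 were tested, having a mean of at least 0.5 RPKM, and 1 of the 9 was called at an adjusted p under 0.05, as lower in DD25::IaaH. Over all 20880 tested genes 6.72% were called lower and 8.25% higher, so the share among the members is near that of all genes. The groups did not overlap for 4 of the 9 (WOX9, PDF2, SCR and BBM), all lower in DD25::IaaH. Of all tested genes 33.3% had groups that did not overlap, and 14.9% were separate and lower. The log2 fold change was below 0 for 8 of the 9, as it was for 46.5% of all tested genes, and the median was -0.22 for the members and 0.03 for all tested genes.

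**Figure D2:**
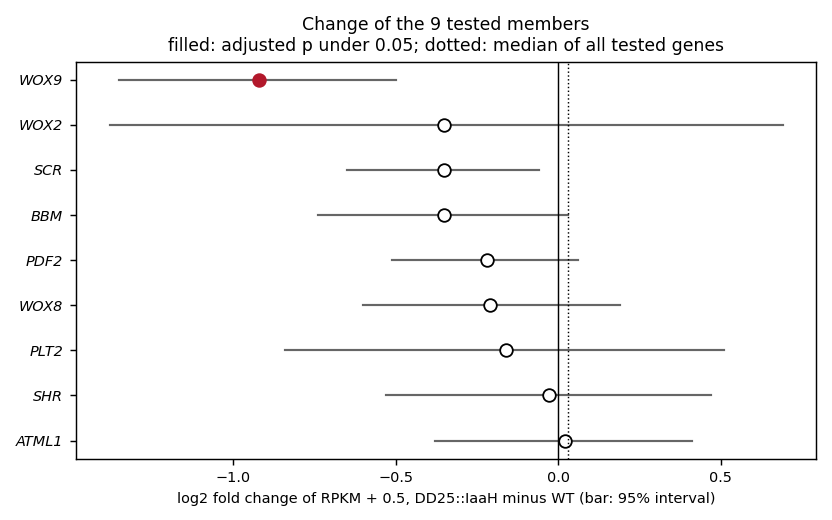
Log2 fold change of RPKM + 0.5, DD25::IaaH minus WT (x axis), of the 9 tested members, with 95% intervals as bars; the filled point passed the test and the dotted line is the median of all tested genes. WOX9 lies at -0.92, and the other 8 lie between -0.35 and 0.02.

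WOX8, the partner of WOX9 in the basal lineage, had 14.8, 19.7 and 20.7 RPKM in DD25::IaaH and 21.0, 24.9 and 18.0 RPKM in WT. The groups overlapped, because WT 3 was below 2 of the DD25::IaaH libraries. WOX8 had a log2 fold change of -0.21 ± 0.17 (SE), a 95% interval of -0.60 to 0.19 and an adjusted p of 0.484. The estimate of -0.92 for WOX9 lies outside this interval, but the interval of WOX9 reaches -0.50 and so overlaps that of WOX8. WOX2, of the apical lineage, had 0.328, 0 and 1.03 RPKM in DD25::IaaH and 0.529, 0.526 and 0.735 RPKM in WT. With 0 to 8 reads per library WOX2 lay at the edge of detection, and its interval of -1.38 to 0.69 includes a change as large as that of WOX9.

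The ratio of WOX9 to WOX8 within a library does not depend on how libraries are scaled. For each unit of WOX8 there were 0.513, 0.518 and 0.319 units of WOX9 in DD25::IaaH, against 0.777, 0.700 and 0.746 in WT. The mean log2 ratio, with 0.5 RPKM added to each gene, was -1.14 ± 0.38 in DD25::IaaH and -0.42 ± 0.07 in WT (SD, n = 3 each), a difference of -0.72. All 3 DD25::IaaH ratios lay below all 3 WT ratios, and the two-sided exact permutation p was 0.1, the smallest that 3 against 3 allow, or 0.6 adjusted over the 6 pairs compared. The test therefore could not call this difference. The ratio of WOX9 to WOX2 differed by -0.58 and that of WOX8 to WOX2 by 0.14, and both overlapped between genotypes (exact permutation p of 0.6 and 0.9).

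**Figure D3:**
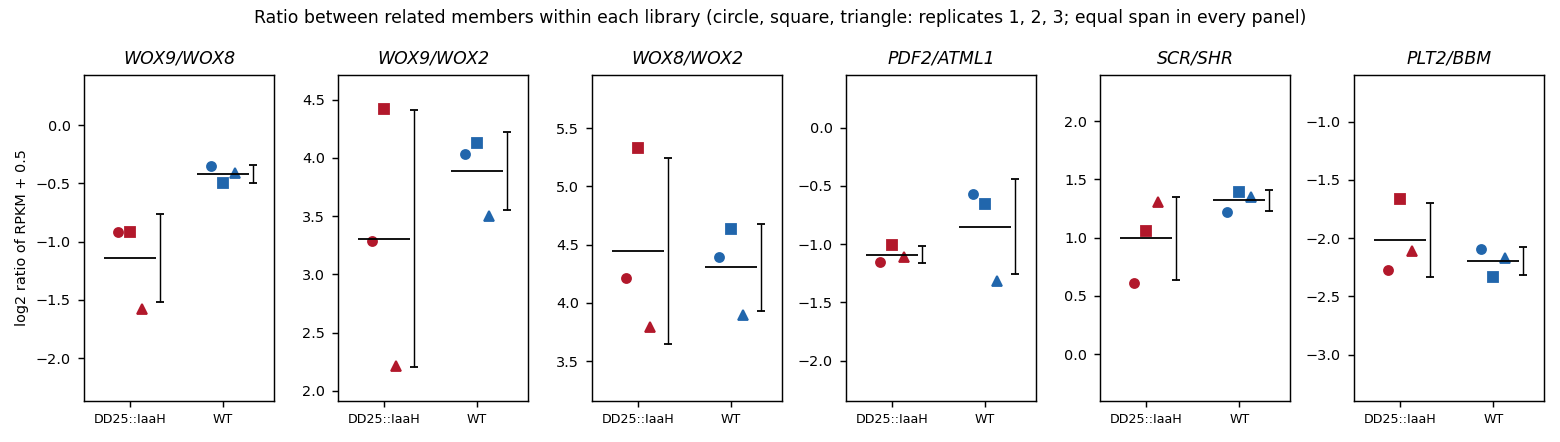
Log2 ratio of RPKM + 0.5 between related members (y axis, equal span in each panel) in the 3 DD25::IaaH libraries (red, left) and the 3 WT libraries (blue, right); lines are means and bars are SD. Only the WOX9 to WOX8 ratio is separate among these 6 pairs, at -1.58 to -0.92 in DD25::IaaH and -0.50 to -0.35 in WT.

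DRN, of the apical domain, was listed at 0.447, 0 and 0.264 RPKM in DD25::IaaH and at 0 in all 3 WT libraries. The DD25::IaaH values stand for 6, 0 and 3 reads, and 3 reads of DRN correspond to 0.135 to 0.370 RPKM depending on the library. DRN was below the filter and was not tested. With the filter dropped its log2 fold change was 0.51 with an adjusted p of 0.281, so no difference was detectable at this depth.

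The epidermal pair gave no call. ATML1 had 55.2, 48.6 and 44.7 RPKM in DD25::IaaH and 42.8, 42.7 and 63.4 RPKM in WT. WT 3 was the highest of the 6 libraries and the other WT libraries the lowest, so the genotypes overlapped. The log2 fold change of ATML1 was 0.02 ± 0.17 (SE), with an interval of -0.38 to 0.41 and an adjusted p of 0.964; it was -0.02 under median-of-ratios and -0.05 under quantile scaling. Its close relative PDF2 had 24.6, 23.9 and 20.4 RPKM in DD25::IaaH and 28.7, 26.7 and 25.2 RPKM in WT. The groups of PDF2 were separate by a narrow gap, from 24.6 RPKM in DD25::IaaH to 25.2 RPKM in WT, and PDF2 did not pass (log2 fold change -0.22, interval -0.51 to 0.06, adjusted p 0.289). The PDF2 to ATML1 ratio was 0.446 to 0.491 in DD25::IaaH, and in WT it was 0.670, 0.627 and 0.397, where WT 3 again stood apart (exact permutation p of 0.4).

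SCR was the most even member in WT. It had 11.0, 12.2 and 10.4 RPKM in DD25::IaaH, against 14.4, 14.5 and 14.5 RPKM in WT. The groups were separate, with 199 to 297 reads behind the DD25::IaaH values and 325 to 641 behind the WT values. SCR nonetheless did not pass the adjusted test: its log2 fold change was -0.35 ± 0.13 (SE), with an unadjusted p of 0.0243 and an adjusted p of 0.110. Over the alternatives the adjusted p of SCR ranged from 0.0700 to 0.428. SHR, which acts upstream of SCR, had 7.06, 5.61 and 3.89 RPKM in DD25::IaaH and 5.89, 5.21 and 5.37 RPKM in WT. The SHR values spread more widely in DD25::IaaH than in WT and enclosed those of WT, with a log2 fold change of -0.03 and an interval of -0.53 to 0.47. The SCR to SHR ratio overlapped between genotypes (difference in log2 ratio -0.33, exact permutation p of 0.2).

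Of the root stem cell factors, BBM had 5.67, 5.18 and 4.76 RPKM in DD25::IaaH and 6.92, 7.51 and 5.93 RPKM in WT. These groups were separate by a narrow gap, and BBM did not pass (log2 fold change -0.35, interval -0.74 to 0.03, adjusted p 0.211). PLT2 had 0.784, 1.30 and 0.720 RPKM in DD25::IaaH and 1.24, 1.10 and 0.926 RPKM in WT. PLT2 rested on 14 to 18 reads in DD25::IaaH and 19 to 47 in WT, and its interval of -0.84 to 0.51 is wide. The PLT2 to BBM ratio overlapped between genotypes (exact permutation p of 0.5).

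Across the 6 libraries, profiles of log2(RPKM + 0.5) centred on their own mean were compared by their root mean square distance. PDF2 and BBM were the closest members, at a distance of 0.103, and SCR lay 0.107 from PDF2. WOX9 lay 0.324 from its nearest member, SCR, and WOX2 lay 0.512 from its nearest, WOX8. Over all tested genes the profiles nearest to that of WOX9 were those of AT5G41710 at 0.0459, MSL4 at 0.0913 and AT1G25550 at 0.0918. AT5G41710 averaged 1.18 RPKM in DD25::IaaH and 2.70 RPKM in WT. With 6 libraries and 20880 profiles, close matches of this kind are a description only.

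The study's transgene makes auxin, so the 250 bases before the start of each gene were searched on both strands for the auxin response element TGTCTC. It was found in WOX8 and BBM, 2 of the 10 members, against 10.9% of 27443 protein-coding genes. The variant TGTCGG was found before none of the 10, against 4.16% of genes. ATML1 and PDF2 bind the L1 box, and its form TAAATGCA was also found before none, against 1.57% of genes. Other forms of the L1 box were not searched for, so these values do not show that the members lack it. WOX9 held none of the searched letters in this window.

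A set of 81 genes was near-absent in DD25::IaaH, by a rule written after the values were seen: all DD25::IaaH values under the lowest WT value divided by 15, and all WT values at 3 RPKM or more. The stretches from the first to the last of them on chromosomes 2 to 5 hold 7216 of the 20880 tested genes. They are wide, and on chromosome 4 the stretch runs from AT4G01593 to AT4G37320. Inside them 11.9% of tested genes were called lower and 8.74% higher, with the near-absent genes counted in. Outside them 3.99% were called lower and 7.99% higher. WOX2, ATML1, PDF2 and SCR lay inside these stretches. WOX9, the called member, lay outside them, as did WOX8, DRN, SHR, PLT2 and BBM.

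Other patterning genes, in 9 lists with 88 different genes whose names matched the reference, set the members in their pathways. Of the 76 tested, 5 rose (6.58%), 6 fell (7.89%) and 65 did not pass, and their median log2 fold change was -0.17. These shares are near those of all tested genes, at 8.25% higher and 6.72% lower. Among the rest of the WOX family 0 of 6 tested genes passed in the limma test, and among early auxin factors of the embryo, such as the auxin response factor MP, 0 of 10 passed. At an unadjusted limma p under 0.05, 1 of 6 genes passed in the WOX family and 4 of 10 among the auxin factors. Of all tested genes 28.8% passed at that threshold. In both lists limma voom on rebuilt reads called 0.

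In the HD-ZIP IV family of ATML1 and PDF2, 3 of 13 other tested members rose and 1 fell. HDG8 rose to 21.9 ± 8.38 RPKM in DD25::IaaH, against 2.05 ± 1.22 RPKM in WT (SD, n = 3 each), with an adjusted p of 0.000382. HDG10 had a log2 fold change of 1.72 and FWA, an imprinted gene of the endosperm, of 1.43, and HDG12 fell with -0.60. In the epidermis and cuticle list LTP1, a lipid transfer protein gene, rose with a log2 fold change of 2.13, 1 of 9 tested, but WT 3 had 569 RPKM of LTP1 and the other WT libraries 110 and 95.9 RPKM. HDG12 also belongs to the zygote and suspensor list, where MKK5, a kinase of the cascade that acts in zygote division, rose with 0.74 and the other 6 of 8 tested did not pass.

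Among factors of organ polarity 2 of 7 fell, the adaxial factor ATHB-15 with a log2 fold change of -0.78 and the abaxial factor KAN with -0.93. Of the shoot pole and boundary list 1 of 9 tested fell, AS1, which limits meristem genes in leaf primordia, with -0.80. SCZ, needed with SCR for asymmetric divisions in the root, fell to 3.90 ± 0.535 RPKM in DD25::IaaH, against 7.71 ± 0.823 RPKM in WT (SD, n = 3 each), with an adjusted p of 0.0101. It was 1 of 12 tested genes of the root pole and ground tissue list, 11 of which had a log2 fold change below 0. AIL5, a relative of PLT2 and BBM, fell with -0.69, 1 of 5 tested in that family, and all 5 had a log2 fold change below 0. Not all lists leaned this way: it was below 0 for 1 of 8 in the zygote and suspensor list and 4 of 13 in the HD-ZIP IV list. Over the 9 lists it was below 0 for 48 of the 76 tested genes, against 46.5% of all tested genes.

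Of these 11 called genes HDG8 and SCZ kept their call when each of the 6 libraries was left out in turn. HDG12, ATHB-15, FWA and LTP1 lost theirs when any library but WT 3 was left out, and their adjusted p reached 0.162, 0.141, 0.103 and 0.128. KAN and AIL5 lost it without DD25::IaaH 2 or 3 or WT 1 or 2 (up to 0.0814 and 0.0971), MKK5 without DD25::IaaH 1 or 3 or WT 1 or 2 (up to 0.0823), AS1 without DD25::IaaH 3 or WT 1 or 2 (up to 0.0633) and HDG10 without DD25::IaaH 1 (0.0687). With all libraries kept, HDG12 also lost its call with a pseudocount of 0.1, with no filter and with no variance trend, ATHB-15 with no filter, LTP1 with no filter, quantile normalisation or no trend, and FWA with no trend (adjusted p up to 0.0785, 0.0884, 0.0816 and 0.0541). Against WT 3 alone only HDG8 of the 11 passed, at 0.0228. HDG12, MKK5, AS1, KAN and FWA overlap other annotated loci, and MKK5, FWA and AIL5 lie inside the stretches with near-absent genes.

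**Figure D4:**
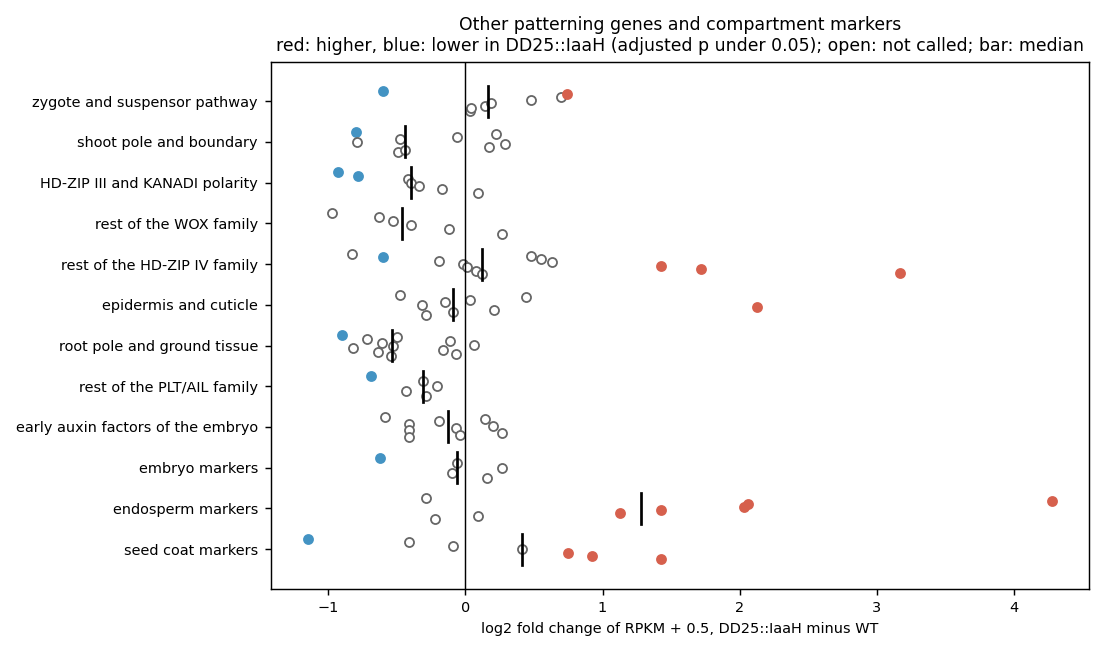
Log2 fold change of RPKM + 0.5, DD25::IaaH minus WT (x axis), of each tested gene in 9 patterning lists and 3 lists of compartment markers (rows); red points were called higher and blue lower in DD25::IaaH, open points were not called, and bars are list medians. The endosperm markers have the highest median, at 1.28, and the embryo markers lie at -0.06.

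Markers of the other seed compartments were measured in the same libraries. Of 8 endosperm markers 5 rose (PHE1, AGL62, MINI3, FIS2 and FWA), and MEA, ZOU and IKU2 did not pass. Their summed level was 109.7 to 148 RPKM in DD25::IaaH and 38.8 to 48.0 RPKM in WT, and most of that difference was PHE1, a MADS-box gene of the endosperm: without it the sums were 48.3 to 50.7 RPKM in DD25::IaaH and 36.2 to 43.2 RPKM in WT. FIS2 lost its call without DD25::IaaH 1 or 3 (adjusted p up to 0.0702), and PHE1 and AGL62 passed against WT 3 alone while MINI3, FIS2 and FWA did not. MINI3 was at 0 in WT 2 and WT 3. Of 7 seed coat markers, BAN, TT12 and TT2, genes of the tannin pathway in the seed coat, rose with log2 fold changes of 0.75, 1.43 and 0.92. TT10, a laccase gene that acts in the browning of tannins, fell with -1.15, and the other 3 did not pass. The seed coat sums were 1523 to 1617 RPKM in DD25::IaaH and 1536 to 1753 RPKM in WT. Large changes in opposite directions enter these sums: BAN averaged 835 RPKM in DD25::IaaH and 499 RPKM in WT, and TT10 259 and 578 RPKM. TT10 kept its call without each library and against WT 3 alone. BAN lost its call without DD25::IaaH 2 or 3 or WT 1 or 2, TT12 without DD25::IaaH 1, 2 or 3 or WT 1, and TT2 without DD25::IaaH 3 or WT 2 (adjusted p up to 0.0667, 0.0794 and 0.0606), and none of these 3 passed against WT 3 alone. Of the 5 embryo markers FUS3, a regulator of seed maturation, fell to 22.2 ± 1.98 RPKM in DD25::IaaH, against 34.7 ± 5.11 RPKM in WT (SD, n = 3 each), and the other 4 did not pass. FUS3 lies inside a stretch with near-absent genes and lost its call without DD25::IaaH 1 or 3 or WT 1 or 2 (adjusted p up to 0.0850) and against WT 3 alone (0.358). AGL62 and TT12 also lie inside such stretches, and FIS2 and TT12 overlap other annotated loci. The sums of the embryo markers overlapped between the genotypes, but LEC1 and L1L made up most of them. LEC1 averaged 148 RPKM in DD25::IaaH and 159 RPKM in WT, and L1L 109 and 99.7 RPKM. Whole seeds do not show which compartment the RNA of the embryo markers came from, so their sum is no measure of embryo content. The part of these compartments in the fall of WOX9 was not tested.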

How the data were processed

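Polyadenylated RNA of whole seeds was sequenced as paired reads, per the labels' protocols. TopHat2 2.1.0 and TAIR10 are named in the submitters' processing notes. The authors deposited 1 table of RPKM values per locus and library. No counting tool or strand setting is given in the sources used here. Per the labels' protocols the authors tested with DESeq; those results were not analysed here.

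Library depth and reads per gene were rebuilt from the RPKM steps. Of 15720 loci with at most 100 reads, 100% gave whole reads within 0.02 reads for some gene length, which for 67.8% lay within 10% of the exon length. The floor of 3 reads covers counting error only. Genes averaging 0.5 RPKM or more were tested with limma 3.58.1 in R 4.3.3 (eBayes with a trend, genotype term, two-sided, Benjamini-Hochberg over 20880 genes, called under 0.05). On 10 simulated sets, each with 200 changed genes, the test recovered 90.3% of changes of log2 fold 2 and 26.2% of changes of 1, with 10.9% of calls false. These sets had the same dispersion of 0.05 in every gene and fewer changed genes than the 3127 called here. The simulated shares therefore need not hold for the real libraries.

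Named were all 10 members, the called genes of each list, up to 4 in order of adjusted p (FWA, in 2 lists, through the HD-ZIP IV list), and the 3 profiles nearest to WOX9. MP, MEA, ZOU, IKU2 and the uncalled embryo markers were named beside this rule, after their values were seen. Of 109 list genes 2 with unmatched names were dropped. Members, lists and tests were chosen with earlier results of these data known. Replicate numbers are not said to pair the samples and were not used as pairs in the main test.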

Additional observations from a re-analysis of the deposited data

How the results depend on the processing

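The call of WOX9 held under 15 of 16 alternatives, with adjusted p from 0.00486, for limma voom on rebuilt reads, to 0.04997 without WT 2. Against WT 3 alone its log2 fold change was -0.71 (adjusted p 0.274), 0 members were called and 1063 genes were called in all, against 3127; fewer libraries entered that fit. Leaving out each library in turn gave 1912 to 4133 calls. With the replicate block WOX9 had -0.92 with an adjusted p of 0.0124, and 2429 genes were called. Same-numbered libraries had correlations of deviations of -0.0802, -0.0310 and -0.101, so the numbers were not taken as pairs; the block changed no member's call, but HDG12 and ATHB-15 lost theirs (0.0644 and 0.0824). No other member was called under any alternative.

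Members without a call changed sign in a few settings. ATML1 had -0.02 with median-of-ratios scaling, -0.05 with quantile scaling, -0.36 against WT 3 alone and -0.08 to 0.20 over single libraries left out. WOX8 had 0.02 and SHR 0.00 against WT 3 alone. Leaving out 1 library gave -0.21 to 0.18 for SHR and -0.39 to 0.05 for WOX2. The WOX8 to WOX2 ratio differed by -0.01 with a pseudocount of 1 and by -0.31 to 0.47 over libraries left out. The cause was not tested. WOX2 and PLT2 were not tested with a filter of 2 RPKM, and WOX2 fell below the filter without DD25::IaaH 3 or WT 3. At 0 to 8 reads per library, depth limits WOX2 and DRN.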
